A study of Homo sapiens and Mus musculus with 12 samples.

Results

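SPI1 (PU.1) bound DNA within introns at 923 of the 1846 sites called in THP1 cells. THP1 is a human monocytic leukemia line, and SPI1 was precipitated from its crosslinked chromatin (ChIP-seq). A peak was counted as intronic if its summit was over 1000 bp from every start of a protein-coding transcript, in no exon of any gene and inside the body of a gene (GENCODE release 44, GRCh38). The other peaks of the list were intergenic (573), within 1000 bp of a start (247, termed promoter peaks) or exonic (103). The intronic sites are set beside 4 further peak lists of the series, 12513 peaks in all 5: GFI1 in THP1 cells, LSD1 and GFI1 in Cas9-expressing K562 cells carrying a non-targeting sgRNA (sg-NT), and GFI1 in K562 cells with an sgRNA against LSD1 (sg-LSD1). K562 is another human leukemia line. GFI1 is a transcriptional repressor, and LSD1 is a histone demethylase that GFI1 recruits. Expression was not measured in these libraries, so the cells could not be checked against marker genes. As only 1 library was made per condition, values lack a replicate check, and no test between libraries or p-value across peaks was computed. Shares are given with their 95% interval by Wilson's method, a measure of counting error alone.

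SPI1 is the ETS-family factor that directs progenitors to the myeloid and B-lymphoid lineages. Its ETS domain contacts a GGAA element, and the bases on either side set which family member binds best. For SPI1 the preferred word is GAGGAAGT, termed here the SPI1 core, often preceded by a run of adenines. SPI1 also binds next to interferon regulatory factors (IRF), on a composite of an ETS and an IRF element. In monocytes and macrophages most SPI1 sites lie away from promoters, many of them in enhancers within introns.

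The sites that follow are the 6 strongest intronic peaks by −log10 p. They show which ETS words lay under the summits, and each is given as 50 bp of the reference plus strand (GRCh38) centred on the summit. Capitals mark every match to GAGGAAGT or to its shorter parts GAGGAA and GGAAGT, on either strand (ACTTCCTC, or TTCCTC or ACTTCC alone, where the word lies on the minus strand).
LINC02780 chr1:4007620-4007669: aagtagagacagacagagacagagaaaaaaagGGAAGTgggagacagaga
SLC38A1 chr12:46218128-46218177: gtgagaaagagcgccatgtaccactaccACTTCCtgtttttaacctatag
POMT1 chr9:131516053-131516102: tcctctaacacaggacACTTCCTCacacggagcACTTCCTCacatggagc
CYTH4 chr22:37285153-37285202: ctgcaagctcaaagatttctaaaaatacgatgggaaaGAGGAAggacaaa
CLASP1 chr2:121611381-121611430: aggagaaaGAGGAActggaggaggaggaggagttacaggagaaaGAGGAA
NFYC chr1:40713173-40713222: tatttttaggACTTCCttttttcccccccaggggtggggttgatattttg

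Each of the 6 windows held one of these words, and the complete core was in the POMT1 window only. The peak in LINC02780, a long non-coding RNA gene, had the largest −log10 p (176) and a fold of 64.8 over the local background. It spanned chr1:4006919-4008068 in intron 2. The next lay in intron 5 of SLC38A1, a sodium-coupled amino acid transporter, with a −log10 p of 136 and a fold of 33.8. POMT1, which transfers mannose to proteins, followed in intron 13, with a −log10 p of 108 and a fold of 43.4. The other 3 lay in introns numbered 1. CYTH4, an exchange factor for ARF GTPases, had a −log10 p of 86.4 and a fold of 36.3. CLASP1, which stabilizes microtubule ends, had a −log10 p of 85.4 and a fold of 33.8. NFYC, a subunit of the CCAAT-binding factor, had a −log10 p of 82.6, but a fold of only 15.5 because its local background was high. Ranks 7 and 11 both fell in CAP1, which acts on actin filaments (folds 17.0 and 13.9). Rank 8 fell in intron 1 of CTSB, the lysosomal protease cathepsin B (fold 30.1), and rank 10 in NIPAL1 (fold 28.8). The non-coding genes ENSG00000286748 and ENSG00000255910 held ranks 9 and 12, with folds of 28.9 and 28.5.

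The fold and −log10 p of every peak are the authors' own values. Read totals are not in the lists. Both values together give the fragments that covered a summit, which ranged from 5 to 105 in the intronic peaks with a median of 13. A background of 0.404 fragments was the lowest held by several peaks, and 326 of the 923 intronic peaks had it. At this depth, sites covered by fewer fragments do not reach the calling threshold of 1e-05 and are not in the list.

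In strength the intronic peaks lay close to the rest of the list. Their median fold was 8.76 (middle 50% from 7.03 to 11.2, range 3.86 to 64.8), against 8.55 in intergenic and 8.32 in promoter peaks. Their median −log10 p was 15, against 14.8 and 13.6, and their median width was 324 bp, against 324 and 325 bp. These are descriptions, because peaks of 1 library are not replicates. Introns by the same rule make up 53.8% of the known bases of the genome and held 50% of the peaks (interval 47.7 to 52.3). That is 0.584 peaks per Mb, close to the 0.498 per Mb of intergenic sequence and below the 3.44 per Mb near protein-coding starts. The 3 members nearest to a start lay at 1003, 1030 and 1068 bp, with folds of 8.17, 8.26 and 9.97. Just outside the rule, the 3 farthest promoter peaks lay at 994, 994 and 988 bp, with folds of 9.26, 11.8 and 4.86.

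The SPI1 core marked the intronic summits. The 50 bp at the summit held GAGGAAGT on either strand in 254 of 923 peaks, which is 27.5% (interval 24.7 to 30.5), where all 1846 SPI1 peaks gave 26.4%. In windows 2000 bp upstream and downstream of the same peaks, 4 of 1846 held it (0.217%, interval 0.0843 to 0.556), a ratio of 127. Of all 50-bp tiles of the genome that meet the intronic rule, 0.225% held it. The shorter word GAGGAA was in 43.9% of the summit windows (4.12% beside them, 43.0% at all SPI1 summits). GGAAGT was in 53.0% (2.82% beside them, 52.1% at all SPI1 summits). Any GGAA at all was in 84.4% (interval 81.9 to 86.6), against 35.9% beside the peaks. The core was in 25.7% of the intergenic windows (interval 22.2 to 29.4) and in 22.7% of the promoter windows (interval 17.9 to 28.3), and both intervals overlap that of the intronic peaks.

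Among all words of 8 letters, GAGGAAGT was the most frequent in the intronic summit windows. The next ones were shifts of the same site along an adenine-rich flank: AAGAGGAA in 233 windows, AGGAAGTG in 223, AGAGGAAG in 222 and AAAGAGGA in 197. Each of these 4 was in at most 13 of the 1846 windows beside the peaks. Upstream of 258 cores that lay in the summit windows, adenine took 69%, 74.8% and 72.5% of the 3 bases before GAGGAAGT, counted outward from it, and 54.3% of the next. At the base beyond, no letter passed 34.5%. On the other side, the first base after the core was G in 66.7%. The other frequent octamers with GGAA in the centre differed from the core at few positions. GGGGAAGT was in 88 windows (9.53%), GAGGAACT in 52 (5.63%), AGGGAAGT in 51 (5.53%), AAGGAAGT in 37 and CAGGAAGT in 34, each in at most 6 windows beside the peaks.

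**Figure D1:**
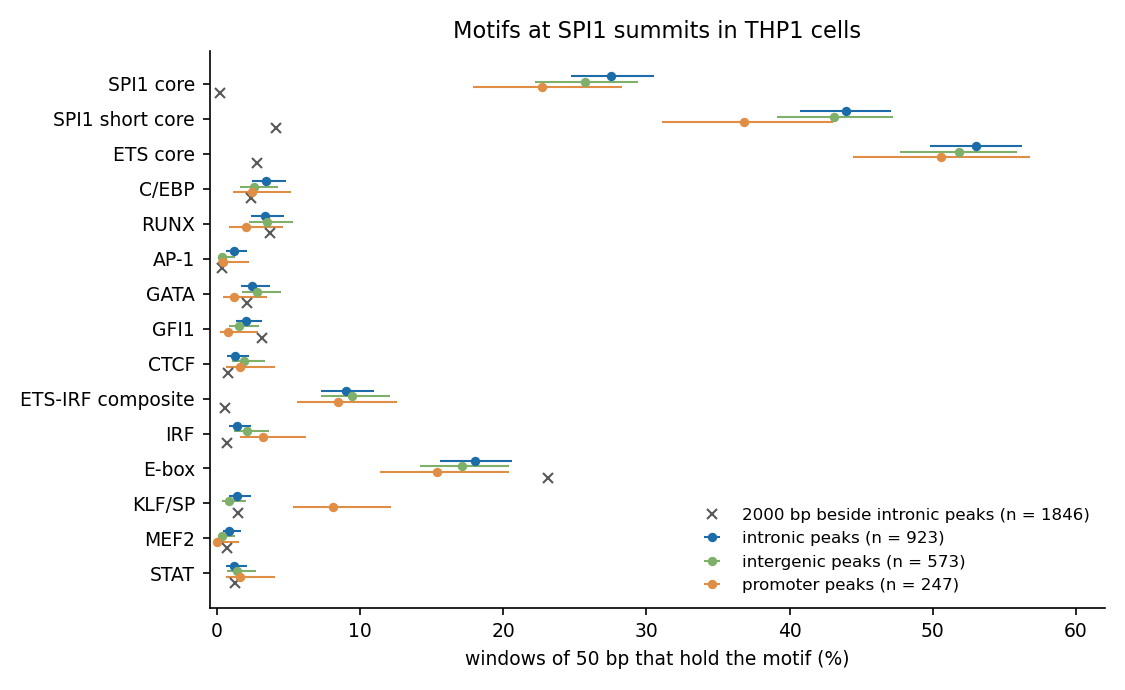
Share of 50-bp summit windows (horizontal axis, percent) that hold each motif on either strand, for intronic, intergenic and promoter SPI1 peaks (points with 95% Wilson intervals) and for windows 2000 bp beside the intronic peaks (crosses). The SPI1 and ETS cores and the ETS-IRF composite stand far above the crosses in all 3 classes, while KLF/SP stands above its cross only at promoters.

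The core lay at the summit itself. Within 250 bp of the summit, 392 members (42.5%) had a core, and the nearest one was at a median of 14.0 bp. It was within 10 bp in 165 of them, within 50 bp in 335 and over 100 bp away in 26. Its direction followed the host gene's strand in 183 and opposed it in 209 (46.7% sense, interval 41.8 to 51.6), an interval that contains equal shares.

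Stronger intronic peaks held the core more often. In 4 groups of 206, 255, 231 and 231 members ordered from small to large −log10 p (ties kept together), GAGGAAGT was in 18.4% (interval 13.7 to 24.3), 25.1%, 32.5% and 33.3% (interval 27.6 to 39.6) of the windows. For the shorter GGAAGT the same groups gave 38.3%, 50.2%, 57.1% and 64.9%, and for GGAA 73.3%, 85.9%, 88.3% and 88.7%. Members with the core had a median fold of 9.68 (middle 50% from 7.44 to 12.2), and those without it 8.55 (6.76 to 10.9). Within the strongest 12, however, the core was in the windows of POMT1 and ENSG00000255910 only, and the highest fold without it was 64.8. The −log10 p also rises with local depth, so these groups are not a ranking of occupancy alone.

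Of 12 motifs of other factors, the ETS-IRF composite stood out. GGAA and GAAA with 2 bases between them were in 83 intronic windows, which is 8.99% (interval 7.31 to 11.0), against 0.542% beside the peaks (interval 0.295 to 0.994) and 0.461% of intronic tiles. The 2 bases were GT in 43 of these windows, which makes the left part the ETS word GGAAGT, and CT in 17. The motif includes GGAA, so the ETS site raises its share too. All SPI1 peaks gave 8.88%, intergenic peaks 9.42% and promoter peaks 8.50%, all within the interval of the intronic peaks. The strongest intronic peak with it was the one in CTSB, followed by the one in the non-coding CYP1B1-AS1 (fold 22.1), a gene named after its value was seen. AIM2, the cytosolic DNA sensor that builds an inflammasome, and IL6R, the receptor chain for interleukin 6, also held it. A pair of GAAA elements 2 bases apart (IRF) was in 1.41% (interval 0.825 to 2.39), against 0.704% beside the peaks (interval 0.412 to 1.2).

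The other motifs lay closer to the windows beside the peaks. C/EBP (TTGCNNAA) was in 3.47% of the intronic windows (interval 2.47 to 4.85) and in 2.38% beside them (interval 1.78 to 3.18). Those intervals overlap, but in wider windows they were apart, with 6.83% (interval 5.37 to 8.64) against 4.33% (interval 3.5 to 5.36) in 100 bp and 15.5% (interval 13.3 to 18.0) against 9.1% (interval 7.87 to 10.5) in 200 bp. AP-1 (TGACTCA) was in 1.19% against 0.379%, with intervals that overlap (0.667 to 2.12 and 0.184 to 0.781). Of all intronic tiles of 50 bp, 0.702% held AP-1, which lies inside both intervals. It too was apart in wider windows, with 3.36% (interval 2.38 to 4.73) against 1.14% (interval 0.745 to 1.73) in 100 bp and 5.20% (interval 3.94 to 6.83) against 2.87% (interval 2.2 to 3.74) in 200 bp. At intergenic summits AP-1 was in 0.349% (interval 0.0958 to 1.26), against 1.31% beside them (interval 0.795 to 2.15). RUNX (TGTGGT) was in 3.36% against 3.74%, and the GATA motif AGATAA in 2.49% against 2.11% (3.71% of intronic tiles). STAT (TTCNNNGAA) was in 1.19% against 1.25%, MEF2 (CTA and TAG with 4 bases between them) in 0.867% against 0.704% and CTCF (CANNAGGGG) in 1.30% against 0.758%. The GFI1 motif AATCAC was in 2.06% against 3.14%, and the E-box (CANNTG) in 18.0% (interval 15.6 to 20.6) against 23.1% (interval 21.2 to 25.1). KLF/SP (GGGCGG) separated introns from promoters, with 1.41% of the intronic (interval 0.825 to 2.39) and 8.10% of the promoter windows (interval 5.30 to 12.2). The base composition moved with it. The 200 bp at the summit had a median GC content of 46% in introns, 45.5% between genes and 57.5% at promoters, and all intronic bases together had 40.6%.

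Several of the strongest intronic sites were tandem repeats, most of them of ETS words. The measure is the best identity of the 200 bp at the summit with itself when shifted by 5 to 100 bp, and an identity of at least 60% was counted as a repeat. It was chosen after the sequences had been seen. By it, 17 of 923 intronic peaks (1.84%, interval 1.15 to 2.93) lay in a repeat, where all SPI1 peaks gave 2.11%, intergenic peaks 3.14% and the windows beside the intronic peaks 0.542% (interval 0.295 to 0.994). Of the 12 strongest intronic peaks, 4 were repeats. The sequences that follow are 150 bp at the summit (plus strand, GRCh38) of 3 of these 4, shown for their repeat units and for the words they repeat, with the same use of capitals.
POMT1 chr9:131516003-131516152: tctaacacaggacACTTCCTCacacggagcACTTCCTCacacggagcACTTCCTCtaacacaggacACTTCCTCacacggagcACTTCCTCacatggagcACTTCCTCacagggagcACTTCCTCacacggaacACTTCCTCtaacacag
ENSG00000286748 chr2:238777058-238777207: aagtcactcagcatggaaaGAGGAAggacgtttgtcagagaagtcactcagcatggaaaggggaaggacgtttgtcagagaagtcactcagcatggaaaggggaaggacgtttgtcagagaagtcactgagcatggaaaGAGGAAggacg
NIPAL1 chr4:47923228-47923377: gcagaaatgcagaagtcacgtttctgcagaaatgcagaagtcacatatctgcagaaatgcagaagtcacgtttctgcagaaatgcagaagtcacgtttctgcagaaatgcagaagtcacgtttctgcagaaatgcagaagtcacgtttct

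The POMT1 peak repeated with a period of 17 bp, and its 1027 bp held 38 copies of the complete core. The CLASP1 peak, 1954 bp wide and the widest of all members, held 85 copies of GAGGAA and no complete core, with a best shift of 78 bp. The peak in ENSG00000286748 repeated every 40 bp (identity 97.5%) and held 18 copies of GAGGAA among 58 GGAA elements. The NIPAL1 peak matched itself best at a shift of 50 bp (identity 98.7%), a multiple of the shorter unit seen in its letters, and held no GAGGAA and only 3 GGAA elements in 558 bp. Its fold of 28.8 thus came without the words that marked the other 3. LINC02780, the strongest of all, lay just under the limit with an identity of 0.598 and a shift of 6 bp. The 17 repeats had a median −log10 p of 17.8 and 4.24 GGAA elements per 100 bp, against 14.8 and 1.61 in the other 906 members. At the weak end, the repeat in RPH3AL, an effector of Rab GTPases, held 54 copies of GAGGAA in 1052 bp with a fold of only 5.70. Whether reads from repeats of this kind were placed at the right copy was not tested.

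Another set of strong sites lay on a raised local background. The members were spread over 661 bins of 1 Mb, and the background was compared only among the bins with the most members. Of those, 4 bins stood apart in background and were chosen after their values were seen. They lie at 40 to 42 Mb of chromosome 1 and 45 to 47 Mb of chromosome 12. By members alone the bins of chromosome 12, with 6 each, did not stand apart, since 53 to 54 Mb of chromosome 3 held 6 as well. Together the 4 bins held 34 members (3.68%) on 0.165% of the intronic bases, which is 13.1 per intronic Mb against 0.584 genome-wide. The median background over these 34 summits was 2.13 fragments (highest 6.56), and over the other 889 it was 0.499. Raised background was not confined to these bins. Across all members, 69 had at least 3 times the lowest background, and outside the bins it reached 5.83 fragments. From 40 to 41 Mb of chromosome 1, the median background of the SPI1 peaks was 11.8 times the lowest of the list. The background of the THP1 GFI1 list was raised there too (11.9 times, 35 peaks), and that of the K562 LSD1 list was not (1.23 times, 9 peaks). The next bin had 3.88 and 3.98 times in the THP1 lists, and the bins of chromosome 12 had 4.04 to 4.59 times. At shared sites the backgrounds of the 2 THP1 lists moved together, with 0.404 (SPI1) and 0.484 (GFI1) at CYTH4 and 4.06 and 4.87 at a SMAP2 site. Whether both lists share a control is not given, so their ratios cannot be taken as independent measures. The cause of the raised background in THP1 cells was not tested. The members there had a median of 33.5 fragments and a fold of 11.2, against 13.0 and 8.74 elsewhere. The core was in 8 of the 34 (23.5%, interval 12.4 to 40) and in 27.7% of the others (interval 24.8 to 30.7). The strong peaks in SLC38A1, NFYC and CAP1 are among them.

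**Figure D2:**
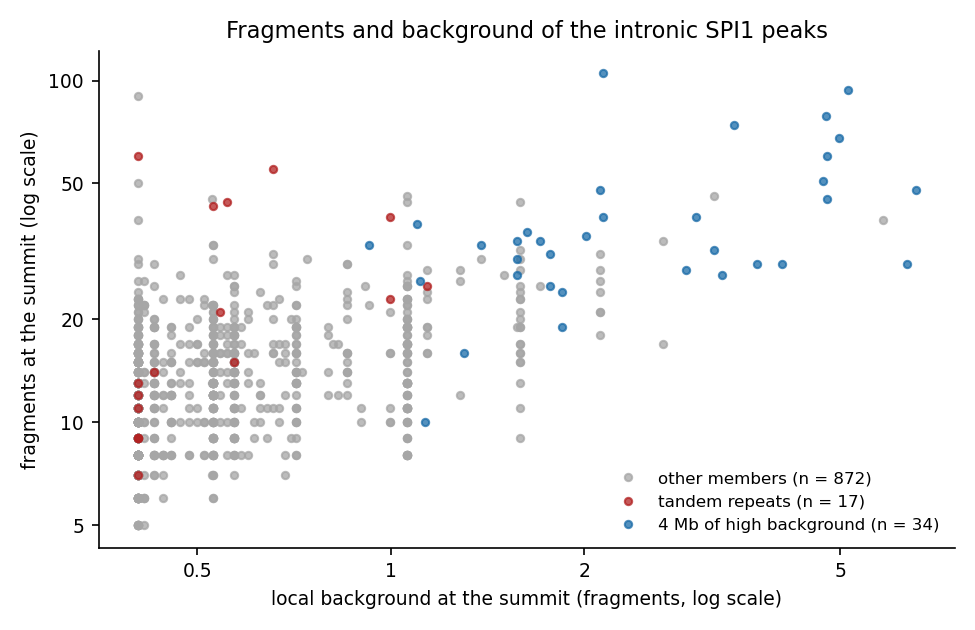
Fragments over the summit (vertical axis, log scale) and local background (horizontal axis, log scale) for each of the 923 intronic SPI1 peaks, with the 17 tandem repeats in red and the 34 members of the 4 bins with raised background in blue. The blue points reach up to 105 fragments, and most red points lie at low background. Members outside the 4 bins also reach the right side, up to a background of 5.83.

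Most host genes held a single peak. The 923 members fell in 851 genes, of which 789 had 1 peak, 53 had 2 and 9 had 3 or more. Protein-coding genes hosted 721 members (78.1%, interval 75.3 to 80.7), long non-coding RNA genes 185 (20%) and pseudogenes 17. HIVEP3, a zinc-finger protein, had 4 peaks with folds from 7.90 to 15.7, and 2 of these held the core. With 3 peaks each followed CAP1, SMAP2 (a GTPase-activating protein for ARF), SCMH1 (a Polycomb protein) and the non-coding ENSG00000257496. These genes, HIVEP3 included, all lie in the 4 bins with raised background. Outside them, 3 genes had 3 peaks: PRKCD, CTNNA3 and RGS12. PRKCD encodes protein kinase C delta, CTNNA3 an alpha-catenin and RGS12 a regulator of G-protein signalling. The peaks of PRKCD had folds of 12.8, 7.64 and 14.0 at backgrounds of 0.404 to 0.570, those of CTNNA3 had 6.41 to 8.55 and those of RGS12 6.37 to 7.83.

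Intronic SPI1 sites were denser near protein-coding starts, which are those of transcripts typed protein-coding. Densities with other starts, such as those of non-coding genes, were not computed. There were 1.16 peaks per Mb of intron from 1000 to 5000 bp of a protein-coding start, 0.818 up to 20000 bp, 0.573 up to 100000 bp and 0.267 beyond. The median distance to a start was 20366 bp. The core went the other way in its point values, from 24.4% of the nearest (interval 18.6 to 31.4) through 25.4% and 28.1% to 34.3% of the farthest (interval 26.8 to 42.7), but the intervals overlap. The median folds of the 4 groups were 8.92, 9.02, 8.55 and 8.64. Of the 622 members in an intron of the canonical transcript of a protein-coding host, 217 were in the first intron, which is 34.9% (interval 31.2 to 38.7). First introns make up 23.9% of such bases. Among members over 5000 bp from any start the share was 28.8% (interval 24.9 to 33.0), against 21.3% of the bases, a smaller excess. Introns with a summit had a median length of 20284 bp. By chromosome, density ranged from 1.22 per intronic Mb on chromosome 19 to 0.0629 on chromosome X, where 4 members lay on 63.5 Mb, and 0 on chromosome Y.

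Among gene lists, the one of phagocyte signalling and the oxidase stood highest. The lists were chosen with earlier results of these data known, so their shares are descriptions and not independent evidence. At least 1 intronic SPI1 peak lay in 662 of 20033 protein-coding genes, which is 3.30%. Because long introns catch more peaks, each list was also set beside all protein-coding genes of like intron length (10 groups). Of 75 genes for phagocyte signalling and the NADPH oxidase, 19 had an intronic peak (25.3%, interval 16.9 to 36.2), where genes of that intron length gave 4.59%. The 23 peaks amount to 3.38 per Mb of their introns, against 0.601 in all protein-coding genes. GGAAGT was at the summit in 11 of them, against 381 of the 721 peaks in all protein-coding genes. The complete core was in 4, against 194 of the 721, so neither word was more frequent in this list. The strongest lay in intron 1 of MAP3K5, a stress-activated kinase (fold 11.3 on a background of 3.18 fragments). DOCK10, a guanine nucleotide exchange factor, followed (intron 4, fold 16.6), and then PRKCD (fold 14.0), GNAI2, an inhibitory G-protein subunit (fold 11.8), and GAB2, a docking protein of cytokine receptors (fold 12.6). The other 14 genes of the list had folds from 5.23 to 12.1. Chosen after their values were seen, they include the lipid phosphatase INPP5D (12.1), the sensor of bacterial cell walls NOD2 (10.2), the oxidase subunit NCF4 (8.93) and the phosphatase PTPN6 (6.41 and 5.70).

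Of 79 hematopoietic transcription factors, 9 had an intronic peak (11.4%, interval 6.11 to 20.3, against 3.73% at the same intron length). IKZF1, a zinc-finger regulator of lymphoid fate, had the strongest, in intron 3 with a fold of 13.6. FLI1, an ETS factor of megakaryocytes, had one in intron 1 with a fold of 13.1, and the repressor BACH2 had one in intron 4 (fold 10.6) and another in intron 5 (fold 7.85). MEF2D (fold 7.79) and BATF (fold 8.55) completed the strongest 5. Of 72 phagocyte receptors, 5 had an intronic peak (6.94%, interval 3.00 to 15.2, against 2.37%), and 2 had one over 5000 bp from a start. IL6R had a fold of 12 in intron 1, and the adhesion receptor ADGRE5 had 13.5, also in intron 1. CSF1R, the receptor for macrophage colony-stimulating factor, had a peak in intron 14 (fold 9.81) and another in intron 1 (fold 9.26). TNFRSF1B, a receptor for tumor necrosis factor, had 9.26, and the integrin chain ITGB2 had 5.88.

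The complete core was in 3 of the 11 peaks of the transcription factors and in 2 of the 6 peaks of the receptors. It is more frequent in the 5 windows of these peaks that follow, which were chosen after their values were seen. They show different forms of the site (50 bp at the summit, plus strand, GRCh38, capitals as before).
FLI1 chr11:128726911-128726960: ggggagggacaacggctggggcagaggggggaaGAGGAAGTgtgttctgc
IL6R chr1:154407440-154407489: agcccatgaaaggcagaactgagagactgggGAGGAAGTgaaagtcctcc
BACH2 chr6:90147057-90147106: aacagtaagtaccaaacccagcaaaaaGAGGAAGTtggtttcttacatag
CSF1R, intron 14 chr5:150058935-150058984: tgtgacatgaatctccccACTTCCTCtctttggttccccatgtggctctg
CSF1R, intron 1 chr5:150081941-150081990: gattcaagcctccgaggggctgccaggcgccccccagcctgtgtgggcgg
FLI1, BACH2 and the intron 14 site of CSF1R held the complete core, in BACH2 behind a run of adenines, and IL6R held it as the left part of the ETS-IRF composite. The intron 1 site of CSF1R held none of the 3 words. Both CSF1R sites overlapped a GFI1 peak of THP1 cells, with summits 55 bp apart in intron 14 and 612 bp apart in intron 1.

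The remaining lists were smaller or held few peaks, and their intervals contain the share at the same intron length. KMT2A fusion proteins drive a group of acute leukemias, and THP1 carries such a fusion. Of 24 of their target genes, 4 had a peak (16.7%, interval 6.68 to 35.9, against 7.82% at the same intron length). They were MBNL1, a splicing regulator (fold 12.7), the receptor kinase FLT3 (12.1), SUPT3H (10.6) and the apoptosis inhibitor BCL2 (9.26). Among 47 genes of the lysosome and of antigen presentation, only CTSB had one (2.13%, against 1.74%). None of 32 granule protein genes did, where 0.913% would match their short introns of 0.299 Mb in all, so this list has little room for a peak. Genes of other lineages gave 1 of 38 for erythroid cells (BLVRB, a biliverdin reductase, fold 11.0), 1 of 30 for T cells (CD247, a chain of the T-cell receptor complex, fold 10.9) and 3 of 28 for B cells. The erythroid share was 2.63% (against 3.09% at the same intron length) and the T cell share 3.33% (against 2.93%). The B cell share was 10.7% (interval 3.71 to 27.2, against 4.13%), from BACH2 again, the kinase BLK with a fold of 10.5 and the nuclear protein AFF3 with 5.83. Of 30 neuronal genes 5 had a peak (16.7%, against 12.2%). These were LSAMP, CDH12, DLG2, MAGI2 and GPC6, with folds of 16.4, 9.71, 8.17, 7.83 and 6.54. Spread over 41.7 Mb of intron they gave 0.120 peaks per Mb, the lowest density of the lists with a peak.

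GFI1 shared a minority of the intronic SPI1 sites in the same cells. At least 1 bp was common to a THP1 GFI1 peak in 88 of 923 members, which is 9.53% (interval 7.80 to 11.6). All SPI1 peaks gave 10.5%, promoter peaks 8.10% (interval 5.30 to 12.2) and intergenic peaks 12.6% (interval 10.1 to 15.5). Seen from the 3461 GFI1 peaks, the shared ones were 2.54%. The summits lay a median of 80.0 bp apart, and within 100 bp at 47 of the 88 sites. SPI1 peaks with and without GFI1 had median folds of 8.84 and 8.76. GGAAGT was in 37.5% of the 88 (interval 28.1 to 47.9) and in 54.6% of the other 835 (interval 51.2 to 58.0). For the complete core the values were 17.0% (interval 10.6 to 26.2) and 28.6% (interval 25.7 to 31.8), with intervals that overlap slightly. The GFI1 motif AATCAC was in 3.41% (interval 1.17 to 9.55) and 1.92% (interval 1.18 to 3.09) of the SPI1 summit windows.

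The strongest shared site was CYTH4, with a SPI1 fold of 36.3 and a GFI1 fold of 8.08 at summits 45 bp apart. CTSB followed with folds of 30.1 and 18.4 (42 bp apart). SMAP2 had 10.6 and 5.49, on a background of 4.77 fragments in the SPI1 library. AIM2 had 17.8 and 10.5, and the non-coding ENSG00000257657 had 14.1 and 12.5 at summits 1 bp apart. Both SMAP2 and ENSG00000257657 lie in the bins with raised background. There 6 of 34 members (17.6%) overlapped a GFI1 peak, against 82 of the 889 elsewhere (9.22%). The CYTH4 window is printed above, and those of SMAP2 and AIM2 show the words beneath shared sites (plus strand, GRCh38, capitals as before).
SMAP2 chr1:40385821-40385870: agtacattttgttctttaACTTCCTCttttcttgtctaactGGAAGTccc
AIM2 chr1:159068216-159068265: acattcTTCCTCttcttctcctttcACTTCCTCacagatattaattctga
Both held the complete core together with another ETS word, while the CYTH4 window held GAGGAA alone.

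Few intronic SPI1 sites of THP1 cells overlapped a called LSD1 or GFI1 peak of K562 cells. SPI1 itself was not precipitated from K562 cells. An LSD1 peak of sg-NT K562 cells shared at least 1 bp with 19 of 923 members (2.06%, interval 1.32 to 3.19), where all SPI1 peaks gave 2.76% and promoter peaks 6.48% (interval 4.03 to 10.3). These are other cells as well as another protein, which cannot be told apart here. Of the 19, 5 also overlapped a GFI1 peak of THP1 cells, where all 923 members gave 9.53%. The strongest by SPI1 was the POMT1 repeat, with a SPI1 fold of 43.4 and an LSD1 fold of 7.36. TMIGD3 had 18.0 and 4.95, the non-coding LINC03009 had 15.2 and 5.59, ADGRE5 had 13.5 and 11.3, and GNA15, a G-protein subunit of blood cells and a member of the signalling list, had 11.1 and 10.9. GFI1 peaks of K562 cells met 2 members in sg-NT cells and 3 in sg-LSD1 cells, 4 different sites. TECPR1, a protein of autophagy, had one in both (GFI1 folds 11.0 and 9.81). ST3GAL4 had one in sg-NT cells only (9.65), and RBM47 (10.3) and S100Z (11.3) had one in sg-LSD1 cells only. All SPI1 peaks gave 0.271% and 0.217% for these lists, and counts of this size do not separate the cells.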

How the data were processed

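ChIP-seq peak lists of 5 libraries were used, 1 per condition. Input and mouse H3K4me1 libraries were not analysed here. Per the submitters' processing notes and methods, adapters were cut with Trim Galore 0.6.1, alignment to GRCh38 used Bowtie2 2.5.4, Picard 3.1.0 took out duplicates, and MACS2 2.2.9.1 called peaks per library (p threshold 1e-05), of which those in the ENCODE blacklist were dropped. Use of the input as the MACS2 control is not given in the sources used here. The authors deposited each peak's fold, the ratio of summit pileup to local background. Beside it the deposited lists hold p-values and q-values on a −log10 scale. No value was renormalized.

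Summits were classed with GENCODE release 44. Starts were those of transcripts typed protein-coding. A summit in several genes was given to a protein-coding gene first, then to the shortest. Introns were numbered in the canonical transcript. MACS2 writes the fold with a pseudocount of 1 and a Poisson p, so fragments and background were solved from both, with a whole number found for all 1846 SPI1 peaks (largest error in −log10 p 0.000455). For GFI1 in THP1 cells 1 peak was not solved. Motifs were searched on both strands in 50 bp at the summit and 2000 bp away. The motif search, the solving of fragments, the repeat measure and the 1-bp overlap were tested on simulated data. The classing of summits and the numbering of introns were not. Named sites are the 12 strongest members, up to 5 genes of each list, hosts of 3 or more peaks and the 5 strongest sites shared with each factor, and others are marked in the text. Of the hosts of 3 or more peaks, 1 is not reported here. The members and lists were chosen with earlier results of these data known.

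Alternatives were thresholds of 8 for −log10 p and 2 for −log10 q, a distance of 5000 bp, protein-coding bodies, interval middles, wider windows, shorter cores and other definitions of overlap. The software was matplotlib 3.10.9 for the figures and, for the rest, samtools 1.23.1, pysam 0.24.0, scipy 1.17.1, numpy 2.4.6 and Python 3.11.15.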

Additional observations from a re-analysis of the deposited data

How the results depend on the processing

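With 1 library there is no replicate to leave out, and sites under the threshold at this depth are not in the list. Of 85 alternatives, 51 stayed within 1.5 times a count or within the interval of a share or median. The share of intronic peaks fell to 40.7% at over 5000 bp from a start and to 39.1% with protein-coding bodies only. Keeping only peaks with a −log10 p from 8 upward gave a median fold of 9.26. The core was in 35.5% of 100-bp and 39.5% of 200-bp windows, and GAGGAA was in 43.9% and GGAAGT in 53.0% of 50-bp windows. The ETS-IRF composite was in 12.6% and 17.0% of the wider windows, and 20 values of the other partner motifs rose likewise, as wider windows hold more words. With summits at most 200 bp apart, 7.69% of members met a GFI1 peak of THP1 cells and 1.30% an LSD1 peak of K562 cells. At over 5000 bp from a start, the share in first introns was 28.8%, and the phagocyte receptors with a peak fell to 2 and the erythroid genes to 0.

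Some alternatives were chosen after seeing the data. Starts of every transcript of protein-coding genes left 890 members. Without the 4 bins of raised background the core was in 27.7%, and without the repeats in 27.6%. An identity of 0.5 or 0.7 gave 24 or 12 repeats. Repeat masking was not run, because the genome used here marks no repeats. No paired analysis was possible because each condition had 1 library.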
